A study of Mus musculus with 36 samples.

Results

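Expression in the whole colon was compared with expression in the duodenum of adult mice, over 36701 probe sets of 3 microarray sets. The comparison took every array titled colon 1 to 3 and every array titled duodenum 1 to 3, which came to 18 of the 36 arrays in the series and to 6 of its 12 samples. The colon group consisted of 3 pools of undivided colon, and the duodenum group of 3 pools of the first few centimetres of intestine after the stomach. Each pool held the tissue of 10 male Hsd:ICR(CD-1) mice, an outbred stock, aged 8 weeks, eating a standard chow freely and given no treatment. All mice in both groups shared this stock, sex, age and diet. The other 6 samples were pools of jejunum and ileum, which are used here to help estimate the spread between pools and to place the named genes along the gut. Every pool was hybridised to array sets A, B and C, and the values are intensities on a linear scale. One array of set C is titled duodenum 3 but has jejunum as its tissue label, and it was counted as duodenum by its title. Whether pools with the same number in different segments share mice is not stated, so they were treated as separate samples, and all p-values measure the spread between pools.

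The duodenum receives acid and partly digested food from the stomach together with bile and pancreatic juice. Its villi are covered mainly with enterocytes, whose brush border carries the last digestive enzymes and whose carriers take up sugars, amino acids, lipids, iron and calcium, while Brunner's glands beneath secrete protective mucus and Paneth cells at the crypt base secrete antimicrobial peptides. The colon has no villi. It absorbs water, salt and the short-chain fatty acids made by its dense bacterial flora, and it is lined by colonocytes and many goblet cells under a thick muscle coat.

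Keratins of simple epithelia, which do not tell intestine from pancreas or stomach, were bright in both groups. Krt8, a keratin of simple epithelia, had mean intensities of 12799.9 in colon and 10414 in duodenum, and Krt19, another such keratin, had 11772 in colon and 7670.3 in duodenum. Neither passed the test (adjusted p = 0.5 and 0.063). Of 6 measured keratins of this kind 1, Krt18, was called higher in colon, by 0.82 on the log2 scale, and 0 lower. Over all genes, 5.12% were called higher and 4.03% lower. The call of Krt18 was lost with arrays centred on their medians and when any 1 of the 6 pools was left out. The authors' scaling set the mean of every array, without its highest and lowest 2%, to about 200 units, and array medians on set A were 73.2 to 75 in the colon pools and 58.4 to 70.3 in the duodenum pools. Correlations between pools across probe sets of set A were 0.962 to 0.967 within colon, 0.953 to 0.956 within duodenum and 0.865 to 0.894 between them. The 18S ribosomal control, which was high in all 6 samples by the choice of the comparison, ranged from 2712 to 7429 in colon and 5285 to 10416 in duodenum on set A, from 6572 to 18252 in colon and 16691 to 31925 in duodenum on set B, and from 8533 to 12763 in colon and 9909 to 25899 in duodenum on set C. The ranges overlapped on every set, with the middle value higher in duodenum, and the part of this control in the results was not tested. The actin control had a ratio of 3′ to 5′ signal of 1.3 to 1.43 in colon and 1.41 to 1.84 in duodenum on set A, and the ranges did not overlap on sets B (1.35 to 1.61 in colon and 1.62 to 1.81 in duodenum) and C (1.25 to 1.36 in colon and 1.48 to 2.03 in duodenum). The actin ratio, which is higher where RNA is less intact, therefore ran somewhat higher in the duodenum pools. The GAPDH ratio overlapped between the groups on every set, with 1.03 to 1.22 in colon and 1.09 to 1.24 in duodenum on set A. The part of RNA integrity in the results was not tested.

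Colon and duodenum differed in 2198 of 36701 probe sets at an adjusted p below 0.05 (5.99%), by limma on log2 of the intensity plus 16 with Benjamini-Hochberg adjustment over all 3 array sets. Of these, 1225 were higher in colon (3.34%) and 973 were lower in colon (2.65%). At least 2-fold differences numbered 1025 higher and 800 lower, and the larger differences leaned the other way, with 83 higher and 166 lower at 8-fold or more and 11 higher and 70 lower at 32-fold or more. The 3 colon and 3 duodenum values did not overlap in 2192 of the 2198 called probe sets, against 22.8% of all probe sets. Calls made up 10.7% of array set A but 1.5% of set C. With 1 probe set taken for each of 15964 genes, 1460 genes were called (9.15%), 817 higher (5.12%) and 643 lower (4.03%), and the median difference over all genes was 0.055. The balance of directions depended on the scaling: with arrays centred on their medians the calls were 847 higher and 1070 lower, so that 44.2% instead of 55.7% were higher in colon, and the median difference of set A moved to -0.076, against 0.079 with the authors' scaling. Of 303 called genes in the lists and among the largest changes, 0 turned direction under that scaling or under quantile normalization. Several probe sets measured 754 of the called genes, and another one was called the same way for 200 of these and the opposite way for 5 (Csrp2, H2-K1, Ighm, Rab11b and Stap2). As an alternative to the brightest probe set of a gene, the lower or upper middle one in the order of differences was used. In the text, differences are colon minus duodenum on the log2 scale, and values per pool are linear intensities.

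**Figure D1:**
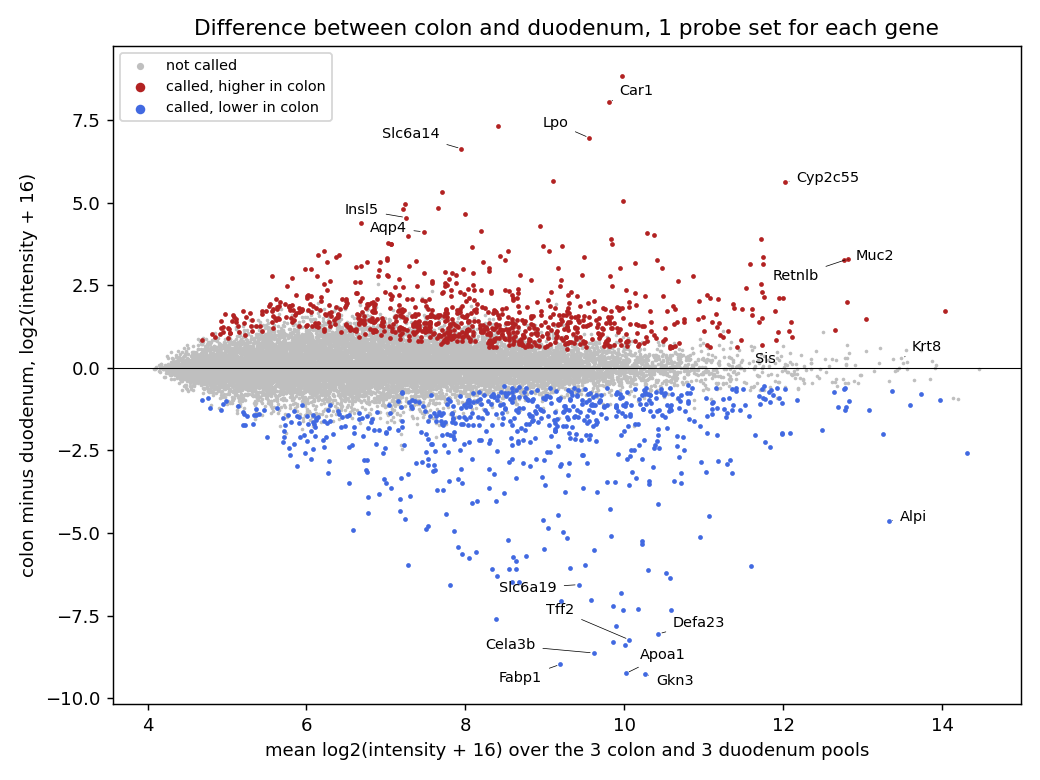
Difference between colon and duodenum (vertical axis, log2 of intensity plus 16) against the mean of the 3 colon and 3 duodenum pools (horizontal axis, same scale) for 15964 genes, 1 point each. Red points are the 817 genes called higher in colon, blue points the 643 called lower and grey points the rest; the named falls reach -9.28 and the named rises 8.04.

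Car1 had the largest rise among named genes. It encodes carbonic anhydrase I, a cytosolic enzyme that interconverts carbon dioxide and bicarbonate, and its intensities were 12552, 17370.4 and 14029 in the colon pools, against 25.3, 26.2 and 79.6 in the duodenum pools. Every colon pool lay far above every duodenum pool, and the difference was 8.04 ± 0.32 (SE; adjusted p = 2.3e-10). Cyp2c55, a cytochrome P450 that oxidises fatty acids, was at 20013, 29068 and 44012 in the colon pools, against 876, 346 and 629 in the duodenum pools. The lowest colon pool was still far above the highest duodenum pool, and the difference was 5.64 ± 0.53 (SE; adjusted p = 1.1e-05). Lpo, the secreted peroxidase lactoperoxidase, was at 7849, 9277 and 8199.5 in the colon pools, against 23.8, 159 and 28.6 in the duodenum pools and differed by 6.96 ± 0.51 (SE; adjusted p = 1.4e-07). Saa2, an acute-phase serum amyloid A protein that the gut epithelium also makes, was at 3320.1, 4164 and 4192 in the colon pools, against 74.8, 97.9 and 29 in the duodenum pools. Its difference of 5.65 ± 0.40 (SE; adjusted p = 1.8e-07) was accompanied by an ileum mean of 966 against a jejunum mean of 39.5. Gsdmc2, a gasdermin, showed one of the widest spreads between duodenum pools, with 5458, 6604 and 5453 in the colon pools, against 47.4, 191 and 392 in the duodenum pools. The groups did not overlap, and the difference was 5.06 ± 0.47 (SE; adjusted p = 2.7e-06).

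The remaining named rises covered several kinds of protein. Ccn3, a matricellular growth regulator, averaged 846 in colon and 11.7 in duodenum, Cd177, a surface protein known from neutrophils, 2292 in colon and 109.9 in duodenum, and Tmigd1, an adhesion molecule of enterocytes, 1065 in colon and 21.8 in duodenum. Their differences were 4.95 ± 0.31 (SE; adjusted p = 4.5e-08), 4.29 ± 0.44 (SE; adjusted p = 2.4e-05) and 4.85 ± 0.37 (SE; adjusted p = 2.3e-07). Hao2, a peroxisomal hydroxy acid oxidase, and Sult1a1, a phenol sulfotransferase, differed by 4.80 ± 0.40 (SE; adjusted p = 1.2e-06) and 4.38 ± 0.43 (SE; adjusted p = 7.3e-06), but a second probe set of each gave -0.02 and -0.05 and was not called. Likewise Tfcp2l1, a transcription factor, differed by 4.15 ± 0.36 (SE; adjusted p = 1.7e-06) with the probe set used and by 0.66, not called, with another. For 12 of the 15 named rises, the duodenum mean lay under the median of its array set, which is called background in what follows since no detection calls were used, and the size of such a difference depends on the offset of 16.

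The 15 named falls were larger, from -9.28 to -7.07, and 12 of them had their colon mean under the array median. Apoa1, the main protein of high-density lipoprotein, which enterocytes add to the lipid particles they export, was at 39.9, 20.6 and 20.3 in the colon pools, against 18909.8, 30017 and 29632 in the duodenum pools. All 3 colon pools were at background, and the difference was -9.25 ± 0.26 (SE; adjusted p = 5.6e-12). Fabp1, which binds fatty acids inside the enterocyte, was at 11.4, 9 and 10.1 in the colon pools, against 11584, 14111 and 13922 in the duodenum pools, a difference of -8.98 ± 0.57 (SE; adjusted p = 4.3e-08). A dimmer probe set of Fabp1 gave -1.47 and was not called (adjusted p = 0.067). Defa23 and Defa35, alpha-defensins that Paneth cells release against bacteria, fell, with differences of -8.05 and -7.82. Defa23 was at 73.6, 72.2 and 60.7 in the colon pools, against 20107, 22168 and 25520.3 in the duodenum pools, with the smallest SE of the 15 named falls (0.17; adjusted p = 3.7e-13). Probe sets of the defensins can bind transcripts of their many relatives, so these values describe the group more than the single gene. Tm4sf5, a membrane protein of the tetraspan type, was at 5.9, 12.1 and 5.9 in the colon pools, against 4559.8, 4204 and 5238 in the duodenum pools and differed by -7.61 ± 0.20 (SE; adjusted p = 2.2e-12). The other named falls were Gkn3, Tff2, Apoa4, Reg1, Akp3 and the pancreatic enzyme genes Cela3b, Cpa1, Cpb1, Cela2a and Prss2, which are described with their groups below. Another probe set of Cpb1 gave -0.53 and was not called.

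**Figure D2:**
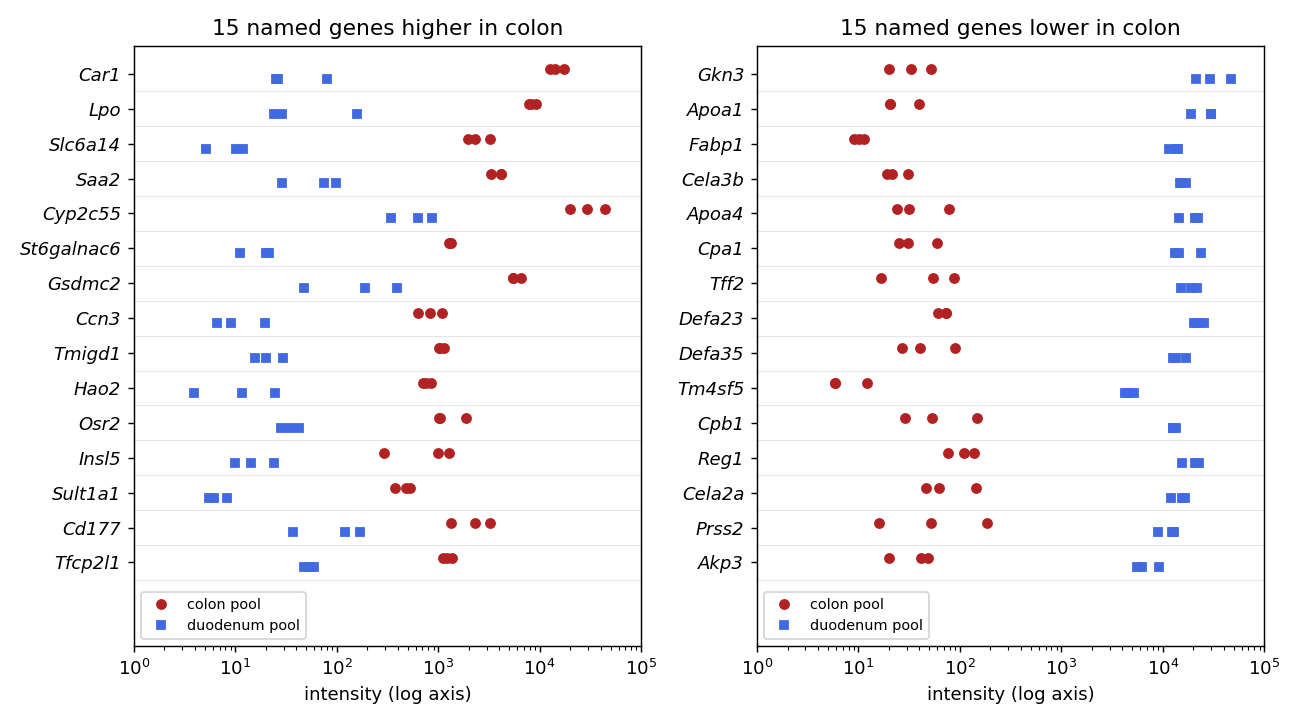
Intensity (log axis) of the 15 named genes higher in colon (left) and the 15 lower in colon (right) in each pool, with colon pools as red circles and duodenum pools as blue squares. In every row the 3 colon points and the 3 duodenum points lie apart, and Insl5 has the widest colon spread of the left panel, from 293 to 1264.

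Genes for the uptake and export of dietary lipid were low in colon almost as a group. Of 20 measured members, 16 fell and 0 rose, with a median of -3.54 beside 0.055 over all genes. Apoa4, a second apolipoprotein of these particles, was at 31.3, 23.9 and 79 in the colon pools, against 14389.8, 20910.2 and 22178 in the duodenum pools, and differed by -8.38 ± 0.40 (SE; adjusted p = 2.0e-09). Mttp, the transfer protein that loads lipid onto apolipoprotein B, was at 1.1, 1.8 and 1.3 in the colon pools, against 591, 383 and 589 in the duodenum pools. All 3 colon values were at background, and the difference was -4.92 ± 0.25 (SE; adjusted p = 4.4e-09). Apob itself averaged 51.6 in colon and 338 in duodenum and fell by 2.35. Mogat2 and Dgat1, which rebuild triglyceride from absorbed monoglyceride and fatty acid, fell, with differences of -3.79 and -3.14, and so did Acsl5, which activates fatty acids (-3.44). Rbp2, which carries retinol in the enterocyte, averaged 89.2 in colon and 3740.3 in duodenum and differed by -5.16 ± 0.20 (SE; adjusted p = 1.6e-10). Abcg5 and Abcg8, which together pump plant sterols back into the lumen, fell (-4.46 and -3.65). Fabp2, the intestinal fatty acid binding protein, was much less different than Fabp1. It was at 1512, 1671 and 1805 in the colon pools, against 3436, 3874 and 5070.3 in the duodenum pools, a difference of -1.29 ± 0.23 (SE; adjusted p = 0.0021), so its colon pools kept a clear signal. Plin2, which coats lipid droplets, averaged 746 in colon and 847 in duodenum and did not pass the test (adjusted p = 0.73).

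The Fabp1 promoter is shown because it holds 4 matches to short motifs of gut transcription factors and the TATA box. The 250 bases before the start of Fabp1 on chr6:71199629-71199878, plus strand, are given 5′ to 3′ from RefSeq on build GRCm38.p6. Capitals mark exact matches to motifs searched on both strands: TATAAA (the TATA box) 30 bases before the start, GTTAAT (a half-site of the hepatocyte factor HNF1) 107 bases before it, and TTTATG (the caudal factor motif), which is read here on the opposite strand as CATAAA, 226 and 88 bases before it.
Fabp1: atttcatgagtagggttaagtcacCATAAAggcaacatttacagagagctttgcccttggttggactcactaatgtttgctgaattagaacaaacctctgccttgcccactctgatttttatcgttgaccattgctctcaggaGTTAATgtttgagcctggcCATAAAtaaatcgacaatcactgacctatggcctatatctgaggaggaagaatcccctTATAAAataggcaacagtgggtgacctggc
A promoter sequence was matched for 403 of the 512 genes called at least 2-fold lower in colon, for 522 of the 660 called at least 2-fold higher, and for 12681 of all 15964 genes. TATAAA occurred in 11.3% of the promoters of genes higher in colon, 15.4% of those lower in colon and 8.64% of all. AGATAA, a motif of GATA factors, occurred in 6.32%, 11.9% and 6.99% of these 3 groups in that order, TGTTTAC, a forkhead motif, in 3.07%, 2.73% and 2.40%, GTTAAT in 5.17%, 7.69% and 4.67%, and TTTATG in 7.66%, 9.43% and 7.0%. These are counts of letters in 250 bases and say nothing of which factor binds.

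Sugar uptake genes followed the same direction, with 8 of 10 measured members lower in colon, 0 higher and a median of -2.46. Slc5a1, the sodium-coupled glucose carrier of the brush border, was at 395, 448 and 505 in the colon pools, against 3004, 4041 and 4294 in the duodenum pools. The colon pools were low but well above the array median, and the difference was -3.02 ± 0.17 (SE; adjusted p = 1.1e-08). Slc2a2, the carrier that lets glucose out of the enterocyte, was at 20.8, 27.7 and 11.1 in the colon pools, against 1729, 1733 and 1772 in the duodenum pools and differed by -5.64 ± 0.25 (SE; adjusted p = 1.0e-09). Slc2a5, the fructose carrier, averaged 57.3 in colon and 720.3 in duodenum and fell by 3.42, but its other 2 probe sets, at -0.08 and 0.23, were not called. Fbp1, an enzyme of glucose synthesis, averaged 32.7 in colon and 3279 in duodenum, a difference of -6.10 ± 0.18 (SE; adjusted p = 9.1e-12). Its relative Fbp2 averaged 855 in colon and 2427 in duodenum and fell by only 1.49.

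Among 14 measured digestive enzymes of the brush border, 10 fell and 1 rose, with a median of -3.22. Akp3, the alkaline phosphatase of mouse duodenum, was at 48.6, 19.9 and 41.2 in the colon pools, against 5561, 6244 and 9274 in the duodenum pools, and Alpi, a related intestinal alkaline phosphatase, at 1707, 2178 and 2319.6 in the colon pools, against 40842, 54263 and 61075 in the duodenum pools. The first was near background in colon and the second was not, and the differences were -7.07 ± 0.58 (SE; adjusted p = 9.7e-07) and -4.64 ± 0.20 (SE; adjusted p = 2.3e-10). Lct, which splits lactose, and Treh, which splits trehalose, fell (-6.08 and -6.48). Lct averaged 34.8 in colon and 3082 in duodenum. Mgam, which releases glucose from starch products, was at 471, 453 and 541 in the colon pools, against 5974, 5821 and 5063 in the duodenum pools, so the colon pools kept a clear signal. The peptidases Anpep, Ace, Mme and Enpep differed by -4.29, -3.69, -2.97 and -2.88, but another probe set of Enpep gave 0.80 and was not called. Sis, the sucrase, was 1 of 3 members not called: it averaged 2844 in colon and 3321 in duodenum, a difference of -0.07 that did not pass the test (adjusted p = 0.96). Mep1a, the alpha subunit of the protease meprin, was the member that rose, at 328, 349.6 and 261 in the colon pools, against 145, 123 and 182 in the duodenum pools (0.99 ± 0.24 (SE; adjusted p = 0.019)), but its call was lost with arrays centred on the median, with quantile normalization and without colon pool 1, colon pool 2, duodenum pool 1 or duodenum pool 2. Its partner Mep1b fell by 1.14, and another of its probe sets, at -1.10, was not called.

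Amino acid and peptide carriers split within one family. Of 13 measured members 8 fell and 1 rose, with a median of -1.71, which was -0.94 with the lower middle and -0.44 with the upper middle probe set of each gene. Slc6a19, the main brush-border carrier of neutral amino acids, was at 60, 24.7 and 98.4 in the colon pools, against 6584, 6989.6 and 6475 in the duodenum pools, and Slc6a20a, which carries proline, was at 16.5, 25 and 25.1 in the colon pools, against 3697, 2321 and 3093 in the duodenum pools. Both were low in every colon pool, with differences of -6.56 ± 0.33 (SE; adjusted p = 1.4e-09) and -6.30 ± 0.30 (SE; adjusted p = 1.0e-09). Slc6a14, which carries neutral and basic amino acids with sodium and chloride, was reversed. Its intensities were 1961, 2302 and 3247 in the colon pools, against 5.1, 10.1 and 11.9 in the duodenum pools, a difference of 6.63 ± 0.61 (SE; adjusted p = 2.1e-06), and 3 of its 3 probe sets were called higher. The basolateral carriers Slc7a7 and Slc7a8 differed by -2.98 and -3.19, Slc7a9 of the cystine carrier by -2.90 and its partner Slc3a1 by -0.82, a call lost without colon pool 3.

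The promoters of Slc6a14 (chrX:21714650-21714899, plus strand) and Slc6a19 (chr13:73692637-73692886, minus strand) are set side by side as the pair of SLC6 carriers furthest apart. Both are the 250 bases before the start, 5′ to 3′, RefSeq, GRCm38.p6, and neither holds any of the 5 motifs, so no base is in capitals.
Slc6a14: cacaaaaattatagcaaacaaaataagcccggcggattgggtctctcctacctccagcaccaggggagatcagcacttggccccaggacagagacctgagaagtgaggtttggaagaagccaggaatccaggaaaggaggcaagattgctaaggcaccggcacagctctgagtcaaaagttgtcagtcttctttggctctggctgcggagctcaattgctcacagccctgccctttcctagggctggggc
Slc6a19: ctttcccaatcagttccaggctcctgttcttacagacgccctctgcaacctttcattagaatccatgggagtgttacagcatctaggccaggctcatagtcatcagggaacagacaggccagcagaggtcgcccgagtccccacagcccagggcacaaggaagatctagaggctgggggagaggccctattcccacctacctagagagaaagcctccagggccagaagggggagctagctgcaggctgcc
In these windows the letters of the TATA box and of the GATA, forkhead, HNF1 and caudal motifs were absent for both genes.

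Iron, zinc and metallothionein genes fell in 7 of 15 cases and rose in 0, with a median of -0.68. Slc46a1, which carries folate and haem, was at 53.2, 15.3 and 51.1 in the colon pools, against 3572, 2705 and 2776 in the duodenum pools and differed by -5.84 ± 0.32 (SE; adjusted p = 1.1e-08). Cybrd1, which reduces dietary iron, and Slc11a2, which takes it up, fell (-2.52 and -2.13), but another probe set of Slc11a2 gave -0.18 and was not called. Slc40a1, ferroportin, which exports iron to the blood, was at 1568, 1730.4 and 3095 in the colon pools, against 7407, 7693 and 8952 in the duodenum pools, a difference of -1.97 ± 0.32 (SE; adjusted p = 0.00078). Its colon pools kept a clear signal, while the jejunum mean was 168 and the ileum mean 448. Mt1 and Mt2, metallothioneins, averaged 2827 in colon and 4473 in duodenum for Mt1 and 2712 in colon and 4311 in duodenum for Mt2 and did not pass the test (adjusted p = 0.31 and 0.23). S100g, the calcium-binding protein calbindin of the enterocyte, was at 16.1, 39.7 and 17.6 in the colon pools, against 2878, 2398 and 2702 in the duodenum pools and differed by -6.09 ± 0.31 (SE; adjusted p = 4.6e-09). Vdr, the vitamin D receptor, averaged 731 in colon and 1291 in duodenum and fell by 0.80 with the probe set used, and differed by -0.11, not called, with another. The sodium-calcium exchanger Slc8a1, which is also a muscle gene, differed by 2.95 ± 0.41 (SE; adjusted p = 0.00023) in the other direction, but its other 3 probe sets, from -0.40 to 0.14, were not called.

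**Figure D3:**
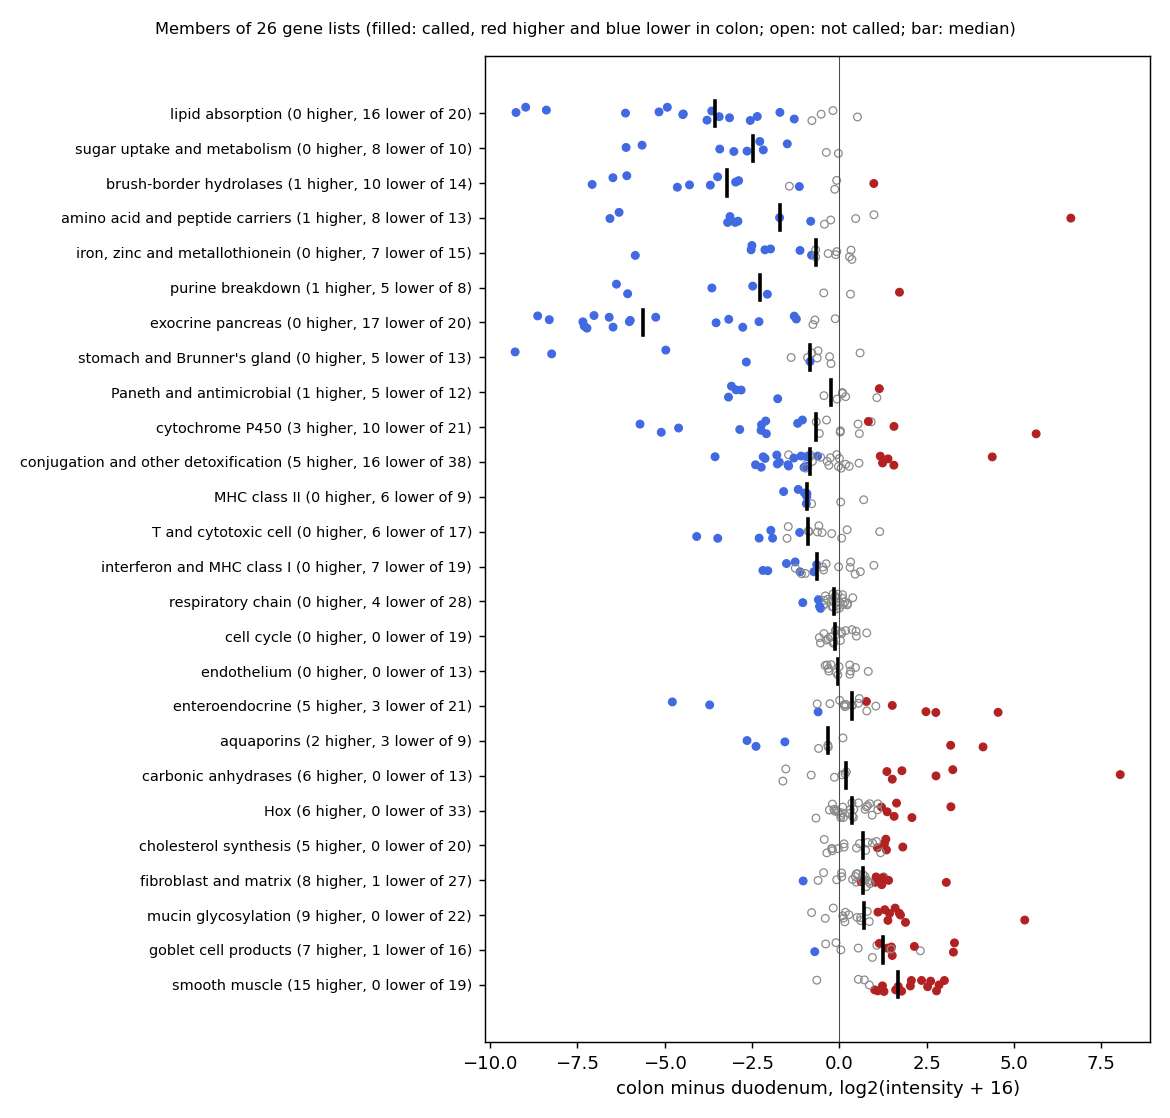
Difference between colon and duodenum (horizontal axis, log2 of intensity plus 16) for each measured member of 26 gene lists, with filled red points called higher, filled blue points called lower, open points not called and a black bar at the list median. Lipid absorption has its median at -3.54, exocrine pancreas at -5.62 and smooth muscle at 1.69.

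Most salt transport genes were not called, and those that were moved both ways. Among 22 sodium, chloride and potassium genes 3 rose, 1 fell and 18 were not called. Over all genes, 5.12% were called higher and 4.03% lower. Slc26a6, an anion exchanger that secretes bicarbonate and oxalate, was at 79.3, 104 and 56.8 in the colon pools, against 13347, 9134 and 9812 in the duodenum pools, the largest single fall of the list at -6.82 ± 0.21 (SE; adjusted p = 5.6e-12). Hsd11b2, which inactivates glucocorticoids and so leaves the mineralocorticoid receptor to aldosterone, was at 519, 402 and 515 in the colon pools, against 28.8, 18.1 and 15.5 in the duodenum pools and rose by 3.76 ± 0.41 (SE; adjusted p = 1.9e-05). Slc12a2, the basolateral chloride carrier, and Slc26a2, a sulfate carrier that supplies mucin sulfation, rose by 1.73 and 2.36. Slc9a3, the brush-border sodium-proton exchanger, averaged 3622 in colon and 1773 in duodenum and did not pass the test (adjusted p = 0.099). Scnn1a, a subunit of the epithelial sodium channel, averaged 338 in colon and 142 in duodenum, also without passing (adjusted p = 0.28). The colonic anion exchanger Slc26a3 was represented by a dim probe set that averaged 9.73 in colon and 45.8 in duodenum and gives no usable level. Among the carriers of vitamins, organic acids and nucleosides 4 of 20 rose and 6 fell. Slc5a8, which takes up short-chain fatty acids with sodium, was at 257, 254 and 236 in the colon pools, against 8.5, 6.6 and 15 in the duodenum pools, with the duodenum pools near background (3.36 ± 0.45 (SE; adjusted p = 0.00015)). In the guanylin pathway 1 of 5 genes fell and 0 rose. Guca2b, the peptide uroguanylin that drives salt and water secretion, was at 580.3, 469 and 568 in the colon pools, against 4145, 5619 and 5526 in the duodenum pools and differed by -3.20 ± 0.18 (SE; adjusted p = 9.3e-09). Its receptor Gucy2c averaged 1674 in colon and 1298 in duodenum and did not pass the test (adjusted p = 0.32), and the probe set of guanylin, Guca2a, was at background in every pool.

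The 13 carbonic anhydrases were all measured, and 6 rose and 0 fell, with a median of 0.20, which was 0.72 without duodenum pool 3 and 0.46 without colon pool 1. Besides Car1, Car4, anchored to the brush border, was at 3677, 5450 and 3636 in the colon pools, against 285, 455 and 586 in the duodenum pools and differed by 3.25 ± 0.29 (SE; adjusted p = 2.2e-06). Car2, a cytosolic form, was at 5007, 5300.5 and 5674 in the colon pools, against 1481, 1219 and 1954 in the duodenum pools and differed by 1.79 ± 0.23 (SE; adjusted p = 0.0001). Car12 rose by 1.36. Car8, which has no catalytic activity, rose by 1.52 with the probe set used, but another probe set gave -0.39. Car3, which is abundant in muscle and fat, rose by 2.77, but another probe set gave 0.14 and was not called. Car9, a membrane form abundant in stomach, had overlapping pools at 106, 483 and 631 in colon, against 1794, 854 and 585 in duodenum (adjusted p = 0.25), and Car13 averaged 21.6 in colon and 94 in duodenum (adjusted p = 0.073). Car5a, Car5b, Car6 and Car14 were dim in both segments, Car7 had overlapping pools, and none of these 5 passed the test.

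Aquaporins, the water channels, were divided, with 2 of 9 higher, 3 lower and a median of -0.33. Aqp8 was at 1059, 1121 and 578 in the colon pools, against 95.7, 63.7 and 91.4 in the duodenum pools and Aqp4 at 929, 751 and 548 in the colon pools, against 24.2, 24.6 and 31.9 in the duodenum pools. Neither overlapped between segments, and the differences were 3.19 ± 0.37 (SE; adjusted p = 3.8e-05) and 4.12 ± 0.31 (SE; adjusted p = 4.1e-07). Aqp11, an intracellular form, was at 313, 209 and 294 in the colon pools, against 1588, 1806 and 1885 in the duodenum pools, a difference of -2.64 ± 0.20 (SE; adjusted p = 1.9e-07). Aqp5 and Aqp3 fell (-2.38 and -1.56), the call of Aqp3 being lost without colon pool 2 or duodenum pool 3. Aqp1, mostly of vessels, averaged 205 in colon and 188 in duodenum and did not pass the test (adjusted p = 0.87). Aqp2, Aqp7 and Aqp9 were dim in both segments and were not called.

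**Figure D4:**
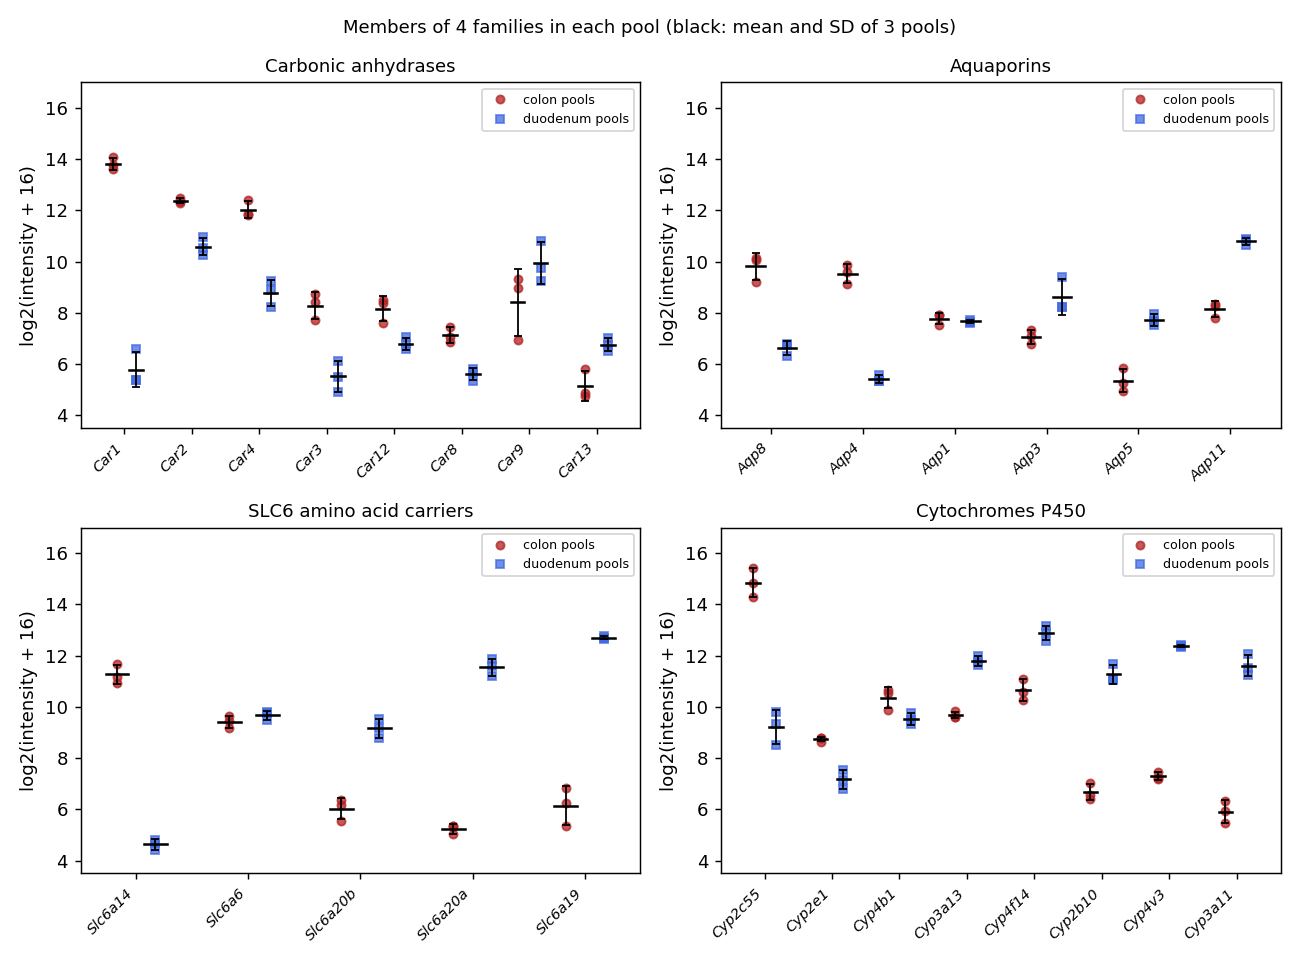
Members of 4 families, carbonic anhydrases, aquaporins, SLC6 amino acid carriers and cytochromes P450, in each pool on the log2 (intensity + 16) scale, with colon as red circles left of duodenum as blue squares and black bars for mean and SD (n = 3). The SLC6 carriers range from Slc6a14 with a difference of 6.63 to Slc6a19 with -6.56; levels of different genes are not comparable.

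Goblet cell products rose in part. Of 16 measured members 7 rose and 1 fell, with a median of 1.26. Muc2, the gel-forming mucin, was at 19972, 27637 and 18511 in the colon pools, against 1943, 2278 and 2527 in the duodenum pools, and Retnlb, a resistin-like goblet cell protein active against bacteria, at 19439.6, 29517 and 20417 in the colon pools, against 2237, 2622 and 2054 in the duodenum pools. The groups lay well apart for both, and the differences were 3.27 ± 0.24 (SE; adjusted p = 1.4e-07) and 3.30 ± 0.19 (SE; adjusted p = 1.3e-08). Klk1, a tissue kallikrein whose probe sets can bind other kallikreins, rose by 2.15, with another probe set at 0.71 and not called. Agr2, which folds mucins, and Spdef, a transcription factor of secretory cells, rose by 1.52 and 1.49, and Itln1, a lectin, by 1.15, a call lost without colon pool 2 or duodenum pool 3. Clca1 averaged 16936 in colon and 11450.3 in duodenum, Zg16 9040.3 in colon and 11903 in duodenum and Fcgbp 9107 in colon and 9413 in duodenum; these mucus proteins did not pass the test (adjusted p = 0.23, 0.25 and 0.91). The 3 trefoil peptides, which stabilise mucus, were lower in colon. Tff3, the goblet cell form, was at 8869.5, 8691 and 7373 in the colon pools, against 11952, 14542 and 14076 in the duodenum pools and differed by -0.70 ± 0.18 (SE; adjusted p = 0.034), a call lost when any single pool except duodenum pool 1 was left out. The gastric form Tff1 was at 355, 399.8 and 489 in the colon pools, against 3786, 869 and 5827 in the duodenum pools and differed by -2.66 ± 0.50 (SE; adjusted p = 0.0035). Other probe sets of Tff3 and Tff1 gave -0.16 and -1.53 and were not called. Genes that build mucin sugars rose in 9 of 22 cases and fell in 0, with a median of 0.71, but with the lower middle probe set of each gene only 4 rose. St6galnac6, which adds sialic acid, was at 1326, 1307 and 1278 in the colon pools, against 11.2, 20.1 and 21.4 in the duodenum pools, and both of its probe sets were called higher (5.31 ± 0.33 (SE; adjusted p = 3.9e-08)). Fut2, which makes the fucosylated H antigen, averaged 75.3 in colon and 9.03 in duodenum and rose by 1.72, but another probe set gave 0.30 and was not called.

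Most measured genes of the exocrine pancreas and some of stomach and Brunner's gland were high in the duodenum pools. Of 20 measured genes of the exocrine pancreas 17 fell and 0 rose, with a median of -5.62, and their summed intensity was 2676 to 5421 in the colon pools and 135251 to 138358 in the duodenum pools. Cela3b, an elastase, was at 21.2, 30.8 and 19.1 in the colon pools, against 16844, 14852 and 15249 in the duodenum pools, Cpa1, a carboxypeptidase, at 25.2, 58.9 and 30.9 in the colon pools, against 23863, 14438 and 13113 in the duodenum pools, and Prss2, a trypsin, at 51.5, 185 and 16 in the colon pools, against 9055, 12783 and 12432 in the duodenum pools. These were low in colon, with differences of -8.63 ± 0.29 (SE; adjusted p = 1.9e-11), -8.30 ± 0.34 (SE; adjusted p = 2.2e-09) and -7.22 ± 0.46 (SE; adjusted p = 5.4e-08). Ctrb1, a chymotrypsinogen, was at 429.9, 1032 and 106 in the colon pools, against 18237, 27689 and 29984 in the duodenum pools, and its colon pools differed about 10-fold among themselves. Of the summed intensity of the duodenum arrays, the pancreatic genes made up 1.69% to 1.97% on set A, which holds 14 of the 20, 1.04% to 1.16% on set B and 0.489% to 0.881% on set C. Among islet genes Ins2, insulin, was at 6.5, 48.3 and 15.7 in the colon pools, against 2185, 1976 and 1646 in the duodenum pools, but another probe set gave -0.14 and was not called, while Ppy and G6pc2 were not called. Reg1, made by pancreatic acinar and gut epithelial cells, was at 76.1, 137 and 110.5 in the colon pools, against 15555, 20973 and 22689 in the duodenum pools and differed by -7.33 ± 0.34 (SE; adjusted p = 1.5e-09). Unlike Cela3b, Cpa1 and Prss2, Reg1 was also bright in jejunum, with a mean of 3783. Of 13 measured genes of stomach and Brunner's gland 5 fell and 0 rose, and their sum was 2004 to 2319.8 in colon and 52769 to 72886 in duodenum. Tff2, the trefoil peptide of Brunner's glands and gastric mucous neck cells, was at 86.6, 54.2 and 16.6 in the colon pools, against 15278, 19093 and 21876 in the duodenum pools, a difference of -8.23 ± 0.41 (SE; adjusted p = 2.8e-09). Gkn3, a gastrokine, was at 32.9, 52.1 and 19.8 in the colon pools, against 46645, 29031 and 21071 in the duodenum pools (-9.28 ± 0.44 (SE; adjusted p = 9.2e-09)), though another probe set gave -0.35 and was not called. Gkn2 varied between duodenum pools, at 117, 102 and 62.3 in colon, against 5001, 1090 and 6766 in duodenum, as did Tff1, with duodenum pool 2 lowest for both. Pgc and Atp4a, which mark chief and parietal cells of the stomach, averaged 65 in colon and 215 in duodenum for Pgc and 95.5 in colon and 175 in duodenum for Atp4a and did not pass the test (adjusted p = 0.1 and 0.33). Whether pancreas or stomach tissue entered the duodenum pools, how much of it, and its part in the other differences were not tested.

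Listed Paneth cell and antimicrobial genes fell in 5 of 12 cases and rose in 1, with a median of -0.25. This list does not hold Defa23 or Defa35, and its measured defensins, Defa24 and Defb1, were not called. Lyz1, the lysozyme of Paneth cells, was at 704, 840.3 and 1068 in the colon pools, against 9318, 9949 and 5227 in the duodenum pools and differed by -3.17 ± 0.28 (SE; adjusted p = 4.9e-06), although another probe set gave 0.04. Mmp7, which activates defensins, averaged 22.1 in colon and 299.6 in duodenum and fell by 3.09. Pla2g2a, a bactericidal phospholipase, ranged widely in colon, at 3258, 716 and 264 in colon, against 7912, 5183 and 5578 in duodenum (-2.81 ± 0.60 (SE; adjusted p = 0.0095)). Of the 7 Reg lectins 3 fell and 0 rose. Reg3b, active against Gram-negative bacteria, was at 14952, 18660 and 14716 in the colon pools, against 13652, 20271 and 12223 in the duodenum pools, with overlapping groups (adjusted p = 0.91), and Reg3g, active against Gram-positive bacteria, averaged 3407 in colon and 4724 in duodenum (adjusted p = 0.4). Reg3a and Reg2 fell (-2.95 and -3.47; the other 2 probe sets of Reg2 were not called), while Reg3d and Reg4 did not pass the test. Olfm4, which marks crypt base cells in the small intestine, was at 39.8, 15.1 and 72.2 in the colon pools, against 3461, 2689 and 2414 in the duodenum pools, a difference of -5.73 ± 0.33 (SE; adjusted p = 9.2e-09). Among 28 genes of Wnt signalling and the crypt base 2 rose and 1 fell, beside 5.12% and 4.03% of all genes. None of 19 cell cycle genes was called by limma, with a median of -0.11 and 0 at an unadjusted p below 0.05. Prom1, a membrane glycoprotein of epithelial progenitors, was at 1760, 1929.5 and 1903 in the colon pools, against 248, 208 and 300.5 in the duodenum pools and rose by 2.82 ± 0.17 (SE; adjusted p = 3.1e-08).

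Hormone genes of enteroendocrine cells followed opposite directions, with 5 of 21 higher, 3 lower and a median of 0.37. Gip, the glucose-dependent insulin-releasing hormone of K cells, was at 21.4, 28.7 and 10.3 in the colon pools, against 920.4, 1070.3 and 877 in the duodenum pools, and Cck, cholecystokinin, at 46.7, 72.9 and 19.4 in the colon pools, against 692, 652 and 918 in the duodenum pools. Both fell in colon (-4.78 ± 0.22 (SE; adjusted p = 1.2e-09) and -3.71 ± 0.28 (SE; adjusted p = 4.2e-07)). Insl5, an insulin-like peptide of colonic L cells, was at 1264, 1003 and 293 in the colon pools, against 10, 14.4 and 23.8 in the duodenum pools, with colon pool 3 lowest, and differed by 4.55 ± 0.49 (SE; adjusted p = 1.3e-05). Pyy, peptide YY, was at 2675, 2279 and 1653 in the colon pools, against 471, 226 and 485 in the duodenum pools and rose by 2.48 ± 0.54 (SE; adjusted p = 0.0099), and Gcg, the source of the glucagon-like peptides, averaged 79.9 in colon and 18.6 in duodenum and rose by 1.52. Both lost their calls without 1 or more single pools, Pyy without duodenum pool 2 and Gcg without colon pool 2, colon pool 3 or duodenum pool 1. Chga, chromogranin A of all these cells, rose by 0.78 but not with median-centred arrays, and Sct, secretin, fell by 0.60 but not after quantile normalization, and both calls were lost when any 1 of the 6 pools was left out. Sst, somatostatin, averaged 683 in colon and 600.1 in duodenum and Chgb 1504 in colon and 984 in duodenum, without passing the test (adjusted p = 0.65 and 0.14). Without colon pool 2, colon pool 3, duodenum pool 1 or duodenum pool 2, only 3 of these genes were called higher.

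Some transcription factors that pattern the gut differed between the segments. Of 26 regional factors 7 rose, 5 fell and 14 were not called. With median-centred arrays 5 rose and 6 fell. Pdx1, which specifies pancreas and duodenum, was at 5.3, 14.2 and 5.4 in the colon pools, against 96.5, 94.3 and 100.2 in the duodenum pools (-2.24 ± 0.27 (SE; adjusted p = 6.3e-05)). Gata4 and Gata5, factors of the small intestine, averaged 61 in colon and 231 in duodenum for Gata4 and 9.77 in colon and 158 in duodenum for Gata5, and fell (-1.82 and -2.75), while Gata6 averaged 195 in colon and 331 in duodenum (adjusted p = 0.12). Creb3l3, a membrane-bound activator of lipid genes, averaged 446 in colon and 10146 in duodenum, a difference of -4.48 ± 0.24 (SE; adjusted p = 2.8e-09). Cdx1, a caudal factor of the intestine, was at 983, 897 and 1111 in the colon pools, against 292, 315 and 353 in the duodenum pools and rose by 1.59 ± 0.16 (SE; adjusted p = 9.2e-06), whereas its relative Cdx2 averaged 187 in colon and 134 in duodenum and did not pass the test (adjusted p = 0.42). Foxa1 and Foxa2, forkhead factors of secretory lineages, rose by 2.25 and 1.96, and Klf4, which promotes goblet cell differentiation, by 1.32, but another probe set of Klf4 gave 0.12 and was not called. Osr2, a zinc finger factor, was at 1014, 1036 and 1893 in the colon pools, against 34.8, 28 and 42.7 in the duodenum pools (4.65 ± 0.31 (SE; adjusted p = 3.9e-08)).

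Hox genes, which mark position along the body axis, rose in 6 of 33 cases and fell in 0, with a median of 0.37. Hoxa7 was at 270, 179.6 and 205 in the colon pools, against 6.4, 10.3 and 11.2 in the duodenum pools, and Hoxb9 at 81.1, 78.5 and 96.4 in the colon pools, against 2.4, 14.3 and 8.4 in the duodenum pools. All duodenum values of both were near background (3.20 ± 0.29 (SE; adjusted p = 2.7e-06) and 2.08 ± 0.29 (SE; adjusted p = 0.00027)). Hoxb6 and Hoxb5 rose by 1.64 and 1.37. Hoxb13, the most posterior member of its cluster, was at 553, 366 and 139 in the colon pools, against 56.6, 140.4 and 96.9 in the duodenum pools, so that colon pool 3 overlapped the duodenum pools (1.57 ± 0.42 (SE; adjusted p = 0.038)), and this call was lost with arrays centred on the median, with quantile normalization and without any single pool except colon pool 3 and duodenum pool 2. Hoxa10 rose by 1.21, a call lost with median-centred arrays and without any single pool except colon pool 2. The calls of Hoxa10 and Hoxb13 were also lost when limma was fitted to only the 6 colon and duodenum arrays of each set (adjusted p = 0.098 and 0.07). Hoxa4 averaged 759.9 in colon and 655 in duodenum (adjusted p = 0.8) and Hoxd13 7.3 in colon and 7.97 in duodenum (adjusted p = 0.95), and 27 of the 33 measured Hox genes did not pass the test.

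Enzymes that metabolise drugs and other foreign compounds fell more often than they rose. Of 21 cytochromes P450 10 fell and 3 rose, with a median of -0.66. Cyp3a11, which oxidises many drugs, was at 45.8, 27.8 and 64.4 in the colon pools, against 2922, 2409.9 and 4305 in the duodenum pools, and Cyp2b10, which responds to the receptor CAR, at 69.6, 114 and 79.5 in the colon pools, against 2138, 2111 and 3299.5 in the duodenum pools. Both were low in every colon pool (-5.70 ± 0.32 (SE; adjusted p = 1.3e-08) and -4.60 ± 0.23 (SE; adjusted p = 3.1e-09)). Cyp4v3 and Cyp4f14, which oxidise fatty acids, fell (-5.09 and -2.24). Against these, Cyp2c55 rose as given above, and Cyp2e1, which oxidises ethanol, was at 384, 430 and 424 in the colon pools, against 127, 96.1 and 172 in the duodenum pools (1.57 ± 0.26 (SE; adjusted p = 0.0011)). Of 38 conjugating and other detoxifying enzymes 16 fell and 5 rose, with a median of -0.84, and 2 or 3 rose with median-centred arrays and without any 1 pool except duodenum pool 3. Ephx2, an epoxide hydrolase, averaged 138 in colon and 1753 in duodenum and fell by 3.56, Gstm3, a glutathione transferase, averaged 1580 in colon and 8890.3 in duodenum and fell by 2.40, and Adh1, an alcohol dehydrogenase, fell by 1.47. Abcb1a, the drug efflux pump P-glycoprotein, was at 909, 1015 and 1572 in the colon pools, against 86.3, 169.6 and 295 in the duodenum pools and rose by 2.67 ± 0.45 (SE; adjusted p = 0.0015). Of 8 genes of purine breakdown 5 fell and 1 rose. Ada, adenosine deaminase, was at 29, 494 and 188 in the colon pools, against 9518, 15955 and 17693 in the duodenum pools, with colon pools spread more than 10-fold (-6.38 ± 0.60 (SE; adjusted p = 4.2e-06)), and Xdh, xanthine dehydrogenase, averaged 186 in colon and 2527 in duodenum (-3.65 ± 0.19 (SE; adjusted p = 4.2e-09)). Cps1 and Arg2, which handle ammonia and arginine, fell (-5.96 and -5.35), but another probe set of Arg2 gave -0.37 and was not called.

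The promoters of Cyp2c55 (chr19:39006769-39007018, plus strand) and Cyp3a11 (chr5:145879855-145880104, minus strand) are shown as the cytochromes that differed most in each direction. They are again the 250 bases before the start, 5′ to 3′, RefSeq, GRCm38.p6. In Cyp2c55 the capitals mark AGATAA 97 bases and TATAAA 29 bases before the start, and in Cyp3a11 they mark TATAAA 234 bases and TGTTTAC 198 bases before it.
Cyp2c55: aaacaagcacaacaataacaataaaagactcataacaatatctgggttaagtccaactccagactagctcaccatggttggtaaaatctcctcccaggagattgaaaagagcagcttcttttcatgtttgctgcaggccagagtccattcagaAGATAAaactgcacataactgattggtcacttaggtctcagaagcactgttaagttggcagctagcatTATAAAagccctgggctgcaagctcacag
Cyp3a11: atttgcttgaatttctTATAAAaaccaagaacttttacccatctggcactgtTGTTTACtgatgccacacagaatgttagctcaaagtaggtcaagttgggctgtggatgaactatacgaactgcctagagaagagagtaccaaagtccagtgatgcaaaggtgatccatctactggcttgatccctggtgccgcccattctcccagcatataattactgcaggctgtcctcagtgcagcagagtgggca
Both promoters hold TATAAA, at distances of 29 and 234 bases, so its letters did not separate the cytochrome that rose from the one that fell.

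Cholesterol synthesis genes rose in 5 of 20 cases and fell in 0, with a median of 0.67, which was 0.11 with the lower middle and 0.30 with the upper middle probe set of each gene, beside 0.055 over all genes by their brightest probe sets. Sqle, a rate-limiting epoxidase, was at 475, 655 and 688 in the colon pools, against 194, 267 and 219 in the duodenum pools, and Hmgcs1, which makes the precursor of mevalonate, at 314, 502 and 580.4 in the colon pools, against 186, 165 and 173 in the duodenum pools. Both differed by less than 2-fold between the nearest pools of the segments (1.35 ± 0.21 (SE; adjusted p = 0.00069) and 1.29 ± 0.26 (SE; adjusted p = 0.0061)). The count fell to 3 without colon pool 2, colon pool 3, duodenum pool 2 or duodenum pool 3. Of 28 respiratory chain genes 4 fell and 0 rose, with a median of -0.15, and the largest was Uqcrc1 at -1.04. Only 1 or 2 of these 4 calls were made after quantile normalization and without any 1 pool except duodenum pool 2.

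Smooth muscle genes rose almost as a group, in 15 of 19 cases with 0 falls and a median of 1.69, and their summed intensity was 40516.5 to 46440.1 in the colon pools and 9899.7 to 11509 in the duodenum pools. Cnn1, calponin, was at 3680.1, 3924 and 4476 in the colon pools, against 495, 536 and 426 in the duodenum pools, Tagln, transgelin, at 4319, 5034 and 5299 in the colon pools, against 749, 748 and 590.4 in the duodenum pools, and Myh11, smooth muscle myosin, at 3605, 4379 and 4212 in the colon pools, against 841, 615 and 523 in the duodenum pools. Colon and duodenum pools lay apart for all of them (3.01 ± 0.16 (SE; adjusted p = 5.7e-09), 2.79 ± 0.17 (SE; adjusted p = 4.0e-08) and 2.62 ± 0.34 (SE; adjusted p = 0.00013)), but the other 2 probe sets of Myh11, at 0.68 and 1.02, were not called. With the lower middle probe set of each gene 9 of the 19 rose. Ano1 and Kit, which mark the pacemaker cells of Cajal, rose by 2.11 and 1.56. Matrix and fibroblast genes rose in 8 of 27 cases and fell in 1, with Postn, periostin, at 288, 227 and 301 in the colon pools, against 21.5, 22.9 and 11.3 in the duodenum pools (3.07 ± 0.29 (SE; adjusted p = 4.5e-06)), and Fbln1 lower in colon (-1.03; 2 of its 4 probe sets were called). Adipoq, the adipocyte hormone adiponectin, was at 539, 393 and 401 in the colon pools, against 27.1, 48.5 and 39.8 in the duodenum pools (3.08 ± 0.35 (SE; adjusted p = 3.3e-05)), and the sum of 7 fat genes was 1043 to 1343 in colon and 296 to 555 in duodenum. Fabp4, another fat gene, averaged 88 in colon and 56.6 in duodenum (adjusted p = 0.42). None of 13 endothelial and 10 skeletal muscle genes was called by limma (1 and 0 at an unadjusted p below 0.05), and 1 of 17 neuron and glia genes rose. Over all genes, 5.12% were called higher and 4.03% lower, and lists this short cannot be told apart from these shares. As whole tissue was used, fewer cells of a type and less RNA per cell cannot be told apart, and the part of muscle and fat in the other rises was not tested.

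In 7 lists of immune genes, the called members were lower in colon except Cd14 and Kit. Ccl25, a chemokine of the small intestinal epithelium that draws gut-homing lymphocytes, was at 59.2, 69 and 19.4 in the colon pools, against 2462, 2070 and 2258 in the duodenum pools (-5.22 ± 0.30 (SE; adjusted p = 1.7e-08)). Of 17 genes of T and cytotoxic cells 6 fell and 0 rose, with a median of -0.89. Ccl5, a chemokine of cytotoxic lymphocytes, was at 104, 46.5 and 22.4 in the colon pools, against 1078, 1223 and 1011 in the duodenum pools, and Gzma, a granule protease, at 21.8, 23.2 and 22.6 in the colon pools, against 616, 350.5 and 326 in the duodenum pools. Colon values were low for both (-4.08 ± 0.32 (SE; adjusted p = 5.0e-07) and -3.48 ± 0.32 (SE; adjusted p = 3.8e-06)), and a second probe set of Gzma gave -0.17 and was not called. Gzmb, a related protease, differed by -2.29 and Itgae, the integrin of intraepithelial lymphocytes, by -1.13, a call lost when any 1 of the 6 pools was left out. Cd4 averaged 129 in colon and 203 in duodenum and Nkg7 1699 in colon and 1651 in duodenum, without passing the test (adjusted p = 0.66 and 0.94). MHC class II genes fell in 6 of 9 cases and rose in 0, with H2-Ab1 at 541, 380 and 307 in the colon pools, against 1044, 1243 and 1446 in the duodenum pools (-1.59 ± 0.21 (SE; adjusted p = 0.00018)). The number of these calls was 1 without colon pool 3 and 3 without duodenum pool 3. Among 19 genes of interferon response and MHC class I 7 fell and 0 rose (4 fell without colon pool 3), led by the immunoproteasome subunits Psmb9 (-2.19 ± 0.21 (SE; adjusted p = 6.8e-06)) and Psmb8 (-2.05 ± 0.21 (SE; adjusted p = 8.8e-06)), though another probe set of Psmb8 gave -0.95 and was not called. Of 16 B and plasma cell genes 3 fell, among them Jchain, the joining chain of secreted antibody (-1.13), while Igha, the heavy chain of IgA, averaged 13698 in colon and 25519.6 in duodenum (adjusted p = 0.095). Cd14, a receptor for bacterial lipopolysaccharide, was at 2391, 1835 and 1284 in the colon pools, against 748, 739 and 683 in the duodenum pools and rose by 1.28 ± 0.21 (SE; adjusted p = 0.0011).

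The position of the middle segments differed from gene to gene. Of the 660 genes called at least 2-fold higher in colon, 421 (63.8%) had both the jejunum and the ileum mean nearer the duodenum, 182 (27.6%) had the ileum alone nearer the colon, 12 the jejunum alone and 45 both. Of the 512 called at least 2-fold lower, 277 (54.1%) had both nearer the duodenum, 133 (26%) the ileum alone nearer the colon, 25 the jejunum alone and 77 (15%) both. These are descriptions of means without a test, and 18S control signal was low in some jejunum and ileum samples. Car1 averaged 43.7, 26.7, 19.3 and 14650.3 from duodenum to colon, a step at the colon. Osr2 averaged 35.2, 715, 2584 and 1314, and Tmigd1 21.8, 30.1, 3347 and 1065, so both were highest in ileum. Fabp1 averaged 13206, 12518, 453 and 10.2, and S100g 2659, 38, 11.5 and 24.5, so among the 4 segments S100g was high in duodenum alone. Anpep averaged 3974, 12767, 12208 and 189, with both middle segments at least 2-fold above both ends, as also for Mmp7, Reg3a and Tmem86a. Car2 averaged 1551, 98.7, 43.7 and 5327, with both middle segments at least 2-fold below both ends. The other genes of that shape were Akr1b8, Wfdc2, Sptssb and AA467197 among those higher in colon, and Slc40a1, Cela1 and Prss2 among those lower. For Prss2, colon pools 1 and 3 were under their array medians, at 51.5 and 16, and colon pool 2 was at 185.

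**Figure D5:**
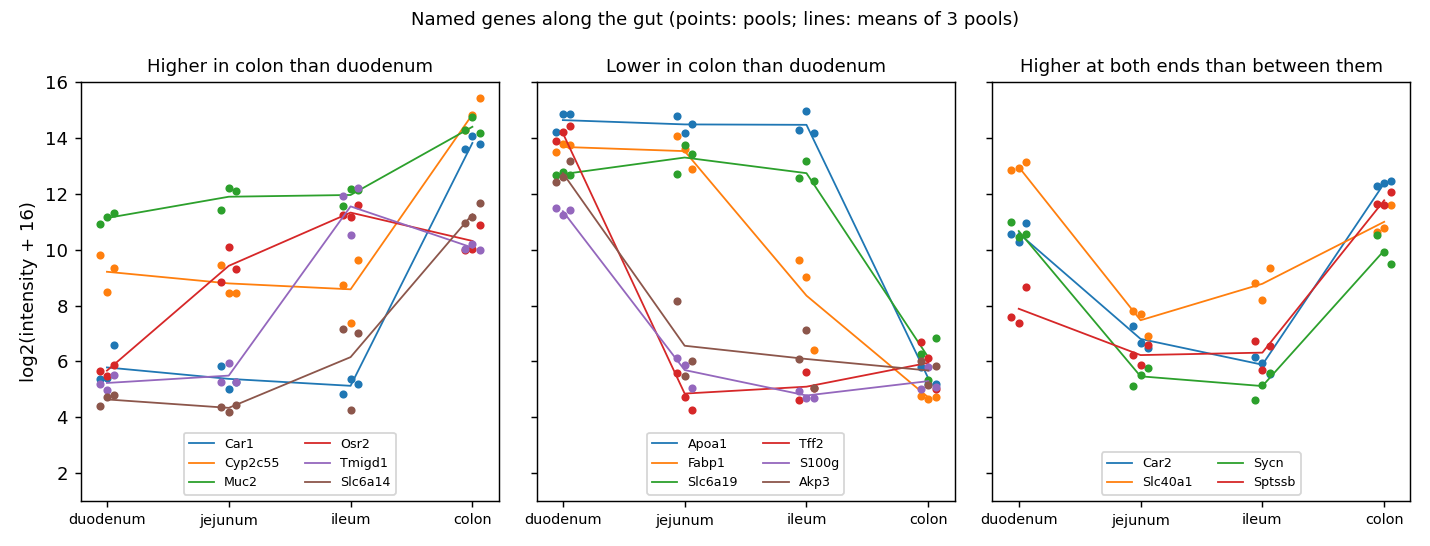
Log2 (intensity + 16) of 16 named genes in the 3 pools of each segment (points) and their means (lines), from duodenum through jejunum and ileum to colon. Car1 steps up at the colon, Fabp1 is lower in ileum than in jejunum, and Car2 and Slc40a1 are lower in both middle segments than at either end.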

How the data were processed

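Total RNA of each pool was measured on 3 array sets of oligonucleotide probe sets. The authors deposited 1 intensity value per probe set and array on a linear scale, scaled to a common trimmed mean as the values themselves show. The software that made these values is not given in the sources used here, and no detection calls were used. The 198 control probe sets were left out of the tests. Each array set was fitted separately on log2 of the intensity plus 16 (limma 3.58.1, R 4.3.3). The fit held a mean for each of the 4 segments, used all 12 arrays and let the moderated variance follow the intensity. Tables and plots were made with Python 3.11.15, pandas 2.3.3, numpy 2.4.6 and matplotlib 3.10.9. The contrast colon minus duodenum was tested 2-sided, and Benjamini-Hochberg adjustment ran over the 36701 p-values of all sets, with a threshold of 0.05. Because of the offset, a dim gene shows a smaller difference than its linear intensities would give. Precision is limited by having 3 pools in each segment.

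Of the probe sets, 29131 carried 1 gene symbol in the arrays' annotation, 724 had more than 1 and 6846 had none. A current gene was found for 29044 in the RefSeq table of GRCm38.p6. Each of 15964 genes was represented by the probe set with the highest mean on set A (8251 genes), else B (5423), else C (2290). Probe sets of gene families such as defensins, Reg proteins, kallikreins, pancreatic proteases and cytochromes can bind transcripts of relatives.

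The comparison and its 57 gene lists were chosen with earlier results of these data known, so counts and medians of lists are descriptions beside those of all genes. Genes were named by rule: the 15 highest and 15 lowest differences, given a call, a change of 2-fold or more, no overlap of the pools and a brighter segment above the array median, leaving out unnamed transcripts. The plan for the lists was up to 5 called members of each in each direction and up to 3 bright members not called. Fewer are named for several lists and none for some, such as the claudins, so the choice from lists was not strictly by rule. All members of the trefoil, carbonic anhydrase, aquaporin, Reg, Cdx and Gata families are named. Of the guanylin and Hox genes all called members are named, but only some of those not called. A few further members of the lists are named for their role and were chosen after their values were seen. Data of 36701 probe sets were simulated with independent normal noise of the spread of the real arrays. In these, 300 probe sets were shifted by log2 1 and 300 by log2 2. The fit called 14.7% of the former and 60% of the latter, and 2.18% of its calls were false. Fewer probe sets were shifted than were called in the real data, so these shares need not hold there. Alternatives covered the samples fitted, blocks, offset, scaling, filter, variance trend, adjustment, choice of probe set and leaving out single pools or the array with 2 tissue labels.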

Additional observations from a re-analysis of the deposited data

How the results depend on the processing

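The 2198 calls became 1917 to 2474 when the offset, scaling, filter, variance trend, adjustment, samples fitted or blocks were changed, and 1825 with a 2-fold minimum. Leaving out 1 pool at a time gave 1484 to 1863 calls, with 755 to 1016 higher in colon and 729 to 847 lower. The 1225 calls higher in colon became 796 without colon pool 1 and 755 without colon pool 3. A replicate block on equal pool numbers gave 2069 calls over 12 arrays and 2306 over 6. It tests no known pairing, since whether equal numbers share mice is not stated. The deviations of equal-numbered colon and duodenum pools correlated at -0.006, 0.108 and -0.033 on set A, at 0.001, 0.023 and 0.056 on set B and at -0.207, 0.029 and -0.225 on set C. Unequal numbers gave -0.072 to 0.081 on set A, -0.048 to 0.024 on set B and -0.044 to 0.248 on set C. With 3 pools in each segment, these correlations cannot show whether pools share mice. Without the array of set C with 2 tissue labels 2218 probe sets were called. Of 303 called genes in the lists and among the largest changes, 282 kept their call with median-centred arrays, 286 after quantile normalization, 274 without the variance trend and 248 to 268 without 1 pool.

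Of the 303 calls, 252 were kept at the lower middle probe set of each gene and 241 at the upper middle one. A gene with 1 probe set keeps it in both settings, so its call could not change. A gene with 2 keeps the one used in 1 of the settings. These counts therefore do not measure agreement between probe sets. Of all 1460 called genes 754 had several probe sets, and another one was called the same way for 200. The 20 genes that turned in direction at a middle probe set did not pass the test there. They were Adk (-0.97), Car8 (-0.39), Fabp6 (-0.20), Hao2 (-0.018), Krt18 (-0.12), Nts (-0.12), Retn (-1.23), Snap25 (-0.83), St3gal3 (-0.68) and Sult1a1 (-0.050) at the lower one. At the upper one these were Cyp1a1 (0.34), Enpep (0.80), Fos (0.014), Lyz1 (0.038), Oat (0.73), Otc (0.22), Pnliprp1 (0.29), Prdx4 (0.022), Slc3a2 (0.32) and Tap2 (0.075). Among lists with 3 or more calls in a direction, counts of called members that moved by over 1.5 times at the lower middle probe set were 4 instead of 9 for mucin glycosylation, 9 instead of 15 for smooth muscle, 5 instead of 8 for fibroblasts, 1 instead of 3 for adipose tissue and 0 instead of 3 for immediate early genes. At the upper one they were 1 instead of 3 for trefoil peptides, B cells and antioxidants, 3 instead of 5 for stomach and for Paneth cells, 3 instead of 6 for T cells, 4 instead of 7 for interferon and MHC class I, 1 instead of 4 for the urea cycle and 2 instead of 5 for nuclear receptors, which were 3 without colon pool 1, colon pool 2, duodenum pool 2 or duodenum pool 3. Ketone and fatty acid oxidation genes numbered 1 instead of 3 without colon pool 3. Lists with fewer calls moved too: at the lower middle probe set nuclear receptors called higher numbered 0 instead of 2 and claudins called higher 1 instead of 2. At the upper one islet genes, calcium genes and claudins called lower each numbered 1 instead of 2. Medians printed above that moved by over 1.5 times at the upper middle probe set were those of exocrine pancreas (-3.13), cytochrome P450 (-0.27), conjugation and other detoxification (-0.45), T and cytotoxic cell (-0.49), iron, zinc and metallothionein (-0.41), mucin glycosylation (1.10), enteroendocrine (0.56) and Paneth and antimicrobial (0.00099). At the lower one they were those of smooth muscle (1.10), goblet cell products (0.83), mucin glycosylation (0.45), carbonic anhydrases (0.14) and enteroendocrine (0.14). Those of amino acid carriers and cholesterol synthesis are given with their genes. The cause of these changes was not tested.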

Other observations

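The genes below lie outside the lists and the naming rule and were chosen after their values were seen, so their values are descriptions. The largest rise over all 15964 genes was 1810065E05Rik, an unnamed transcript, at 17028, 23868 and 24053 in the colon pools, against 20.4, 27.8 and 48 in the duodenum pools, a difference of 8.84 ± 0.35 (SE). Another unnamed transcript, 2610528A11Rik, was at 4209.7, 3948 and 4733 in the colon pools, against 5, 16.7 and 11.8 in the duodenum pools (7.33 ± 0.27). Both had their duodenum mean under the median of their array set.

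Several enzymes that handle sulfur compounds were higher in colon. Ethe1, the mitochondrial persulfide dioxygenase, was at 9886, 13269 and 10113 in the colon pools, against 916, 992 and 1283 in the duodenum pools (3.36 ± 0.18), and Sqor, which oxidises hydrogen sulfide, was at 1645, 1797 and 1965 in the colon pools, against 128, 167 and 131 in the duodenum pools (3.53 ± 0.22). Another probe set of Sqor, also called higher, gave only 0.53. Selenbp1, a methanethiol oxidase, was at 4563, 5110.2 and 5813 in the colon pools, against 316, 287 and 265 in the duodenum pools (4.08 ± 0.15). Tst, a thiosulfate sulfurtransferase, averaged 1098 in colon and 92.5 in duodenum, a difference of 3.38, but another probe set gave 0.09. Mpst and Cbs, which produce hydrogen sulfide, differed by 2.34 and 2.82.

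Scd1 and Scd2, which desaturate fatty acids, averaged 1104 in colon and 103 in duodenum for Scd1 and 2233 in colon and 155 in duodenum for Scd2, and differed by 3.26 and 3.68; 1 of the 3 probe sets of Scd1 gave -0.12 and was not called. Slc2a1, a glucose carrier of many cell types, was at 379, 431 and 371 in the colon pools, against 15.6, 23.3 and 39.5 in the duodenum pools (3.32 ± 0.38), opposite to Slc2a2. Hk2, which phosphorylates glucose, differed by 2.98, with another probe set at 0.02, and Ern2, a stress sensor of the endoplasmic reticulum in goblet cells, by 3.10. Ceacam1, an adhesion molecule, was at 8333, 10365 and 8670.3 in the colon pools, against 1048, 852 and 1159 in the duodenum pools (3.15 ± 0.16). Hoxa11os, the antisense transcript at Hoxa11, averaged 174 in colon and 7.73 in duodenum (2.99), although only 1 of its 3 probe sets was called and the lowest gave 0.33, with the jejunum at 7.57 and the ileum at 7.4. Mptx1, a pentraxin, was at 7081, 7451 and 2947 in the colon pools, against 501, 305 and 199 in the duodenum pools, with colon pool 3 lowest (4.04 ± 0.36).

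Among falls, Lgals2, a galectin, was at 157, 181 and 132 in the colon pools, against 10896, 12937 and 14201 in the duodenum pools (-6.20 ± 0.20), and Leap2, an antimicrobial and hormone-like peptide, at 28.2, 19.9 and 14.7 in the colon pools, against 1473, 1734 and 1469 in the duodenum pools (-5.43 ± 0.33). Pdzk1, a scaffold of brush-border carriers, averaged 8.9 in colon and 494 in duodenum (-4.40; 2 of its 3 probe sets were called), Rdh7, a retinol dehydrogenase, 31.4 in colon and 988 in duodenum (-4.42), and Gpd1, which makes glycerol phosphate for lipid synthesis, 304 in colon and 3676 in duodenum (-3.55). Slc43a2, an amino acid carrier, differed by -3.33, with 2 of its 4 probe sets called, and its jejunum mean of 9771 was above both its colon mean of 345 and its duodenum mean of 3591.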
